A study of Homo sapiens with 16 samples.

Results

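The genes described here are 7 immediate-early genes outside the FOS, EGR and JUN families, namely DUSP1, IER2, IER3, ZFP36, PPP1R15A, MCL1 and SRF. They were chosen by name and by their spans on the hg19 genome, a rule that uses no measured value. The choice was made with earlier results of these data known. All 7 had RNA polymerase II (Pol II) peaks. The series maps Pol II, through its subunit RPB1, and DNA topoisomerase II alpha (TOP2A) by chromatin immunoprecipitation and sequencing in hTERT RPE-1, a wild type retinal pigment epithelial cell line kept dividing by telomerase. All cells, controls included, were starved in 0.1% serum for 48 h before any treatment. Pol II was mapped after 200 uM merbarone, which blocks the catalytic cycle of topoisomerase II, for 30 min (3 libraries) or 1 h (2 libraries), and in control cells (3 libraries given DMSO vehicle for 30 min and 3 untreated ones). TOP2A was mapped in 2 libraries of untreated cells. No vehicle library matched the 1 h time. The other 3 libraries were made with IgG and were not analysed here. All libraries came from this 1 line, and nothing in the labels says that they came from separate cultures.

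The data are 4 lists of peaks, the stretches of DNA called as bound, with 87911 Pol II peaks in control cells, 85990 after 30 min and 81816 after 1 h, and 1840 TOP2A peaks. A condition's libraries were deposited as 1 joint list, and vehicle and untreated libraries shared the control list. No value therefore has a spread between replicates, no test between conditions was possible, and read depth was unknown. Peaks carried no height or score, so the measure used throughout is cover, the share of a window that lies under peaks, and a change in Pol II amount on DNA that stays covered cannot be seen. The 1 h list as a whole held fewer peaks over more DNA: its peaks covered 58.3 Mb, against 42.8 Mb in control, and stood no closer than 38 bp, while control and 30 min peaks stood as close as 1 bp. The lists hold no expression values, so markers of the cell type were not analysed here.

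Immediate-early genes are switched on within minutes of a signal such as serum, without new protein synthesis, and many of them hold a paused Pol II close to their start before the signal arrives. Topoisomerase II relieves the DNA supercoils and tangles that transcription leaves behind. SRF is the transcription factor that, with its partners, binds serum response elements at many of these genes and at its own promoter. IER2 and IER3 are short proteins made early after growth factors or stress. DUSP1 is a phosphatase that turns off MAP kinases, and ZFP36 (tristetraprolin) binds AU-rich elements of messenger RNAs and speeds their decay. PPP1R15A (GADD34) brings protein phosphatase 1 to eIF2 alpha and so ends the integrated stress response, and MCL1 is a short-lived inhibitor of apoptosis of the BCL2 family.

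RefSeq's promoter table (GRCh38.p14) held the annotated first start of 5 of the 7 genes, and those of IER3 and MCL1 were not among them. The 250 bases before the start are shown for the genes with a full match to a motif marked below, since the results below turn on how Pol II is spread around these starts. Letters are given 5′ to 3′ on the gene's strand, and capitals mark matches, on either strand, to the cAMP response element TGACGTCA, to TATAAA or to the CArG box, the core of the serum response element.
DUSP1: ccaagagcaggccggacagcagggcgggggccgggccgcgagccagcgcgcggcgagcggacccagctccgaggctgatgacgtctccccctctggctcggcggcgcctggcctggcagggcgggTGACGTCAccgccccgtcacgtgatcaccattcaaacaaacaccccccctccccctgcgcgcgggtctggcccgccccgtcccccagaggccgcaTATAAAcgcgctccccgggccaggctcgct
PPP1R15A: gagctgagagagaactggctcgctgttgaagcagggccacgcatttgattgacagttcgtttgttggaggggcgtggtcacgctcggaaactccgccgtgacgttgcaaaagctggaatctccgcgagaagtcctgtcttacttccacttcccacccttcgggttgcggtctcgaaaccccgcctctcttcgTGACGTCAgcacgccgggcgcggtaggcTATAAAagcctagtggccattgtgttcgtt
SRF: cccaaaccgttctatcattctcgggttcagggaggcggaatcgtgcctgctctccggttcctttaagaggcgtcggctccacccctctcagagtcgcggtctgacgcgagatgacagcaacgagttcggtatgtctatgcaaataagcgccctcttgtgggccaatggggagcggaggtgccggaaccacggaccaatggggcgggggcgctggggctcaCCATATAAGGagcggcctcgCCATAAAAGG

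On GRCh38.p14 these are chr5:172771196-172771445 (minus strand), chr19:48872171-48872420 (plus strand) and chr6:43171019-43171268 (plus strand). All other positions in this text are on hg19. DUSP1 had TGACGTCA at positions -125 to -118 and PPP1R15A at -58 to -51, counted from -1 at the base before the start, and both had TATAAA at -30 to -25. SRF had 2 CArG boxes, at -30 to -21 and at -10 to -1. No match to these 3 motifs lay in this stretch of IER2 or ZFP36. Of 35116 promoter entries in the table, 1.65% held TGACGTCA in the same stretch, 10.7% held TATAAA and 1.16% held a CArG box, and 11 entries held at least 2. These matches describe letters and do not show that a factor binds.

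Pol II peaks already covered most of the body of 6 of the 7 genes in starved control cells. The genes were read in 3 windows: the start (1 kb either side), the body (from 1 kb after the start to the gene's end) and the 5 kb past the end. Median cover of the bodies was 97.6% in control cells, 98.9% after 30 min and 100% after 1 h. Across all 80269 tiles of 2 kb with a Pol II peak in any list, the median tile was covered over 14.9% in control, and 5.83% of tiles were covered over at least 90%, as were 5 of the 7 bodies. The tiles are a background of Pol II regions and not of gene bodies, because no hg19 gene annotation was used here. Nor do they match the bodies in width, which ran from 353 bp at IER3 to 9212 bp at SRF. Cover cannot pass 100%, so the bodies left little to gain: only MCL1 and SRF had 10 points or more still uncovered in control.

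**Figure D1:**
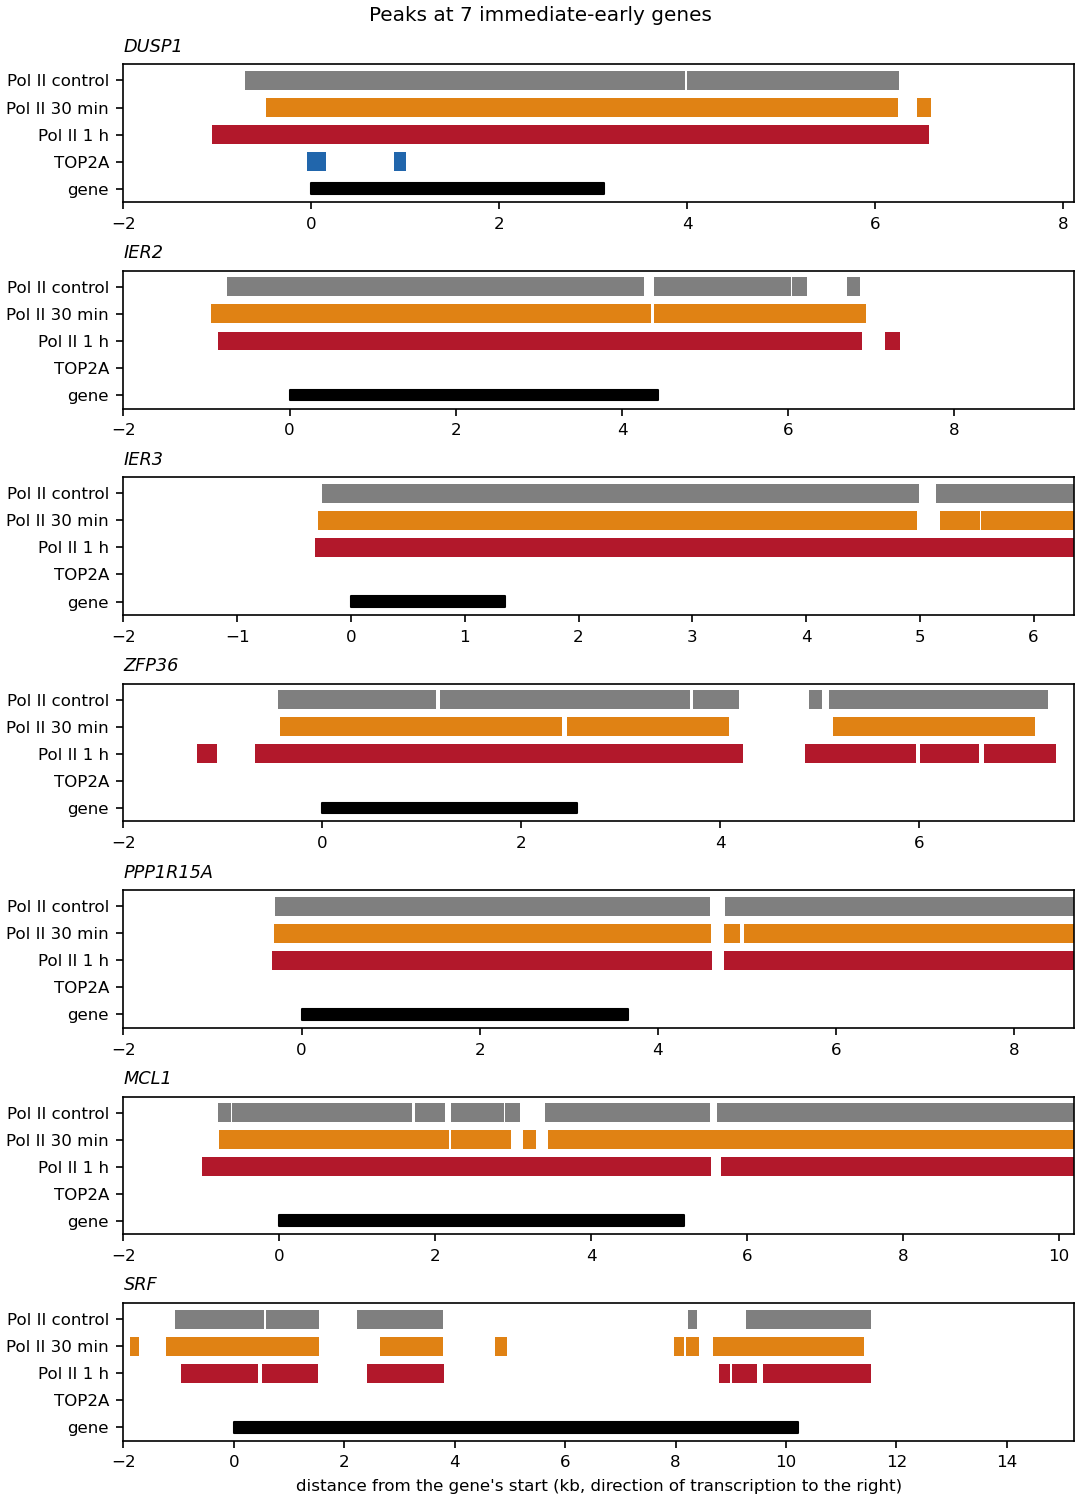
Peaks at the 7 genes, from 2 kb upstream of the start to 5 kb past the end, with distance from the start in kb and transcription running to the right. Rows show Pol II peaks of the control, 30 min and 1 h lists, TOP2A peaks of untreated cells and the gene's span in black; only the SRF body holds wide stretches with no Pol II peak, and only DUSP1 holds TOP2A peaks.

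SRF was the exception. The gene lies on chromosome 6 from 43139033 to 43149244 on the plus strand and is the longest of the 7, at 10212 bp. Its start was covered over 98.0% in control cells, 100% after 30 min and 94.7% after 1 h. Its body was covered over 34.7% in control cells, 42.1% after 30 min and 34.4% after 1 h, so cover was highest at 30 min and at 1 h was close to that in control (a difference of -0.33 points). With peaks of at least 300 bp alone, the body differed from control by 3.96 points at 30 min, against 7.40 with all peaks, and by 1.30 points at 1 h. The widest stretch of the gene with no peak measured 4433 bp in control cells, 3017 bp after 30 min and 4986 bp after 1 h. It ran from 3785 to 8218 bp past the start in control, from 4953 to 7970 after 30 min and from 3808 to 8794 after 1 h. Pol II was found again at the 3′ end, where a peak reached 11531 bp past the start in control cells, 11421 bp after 30 min and 11543 bp after 1 h. In the order of RefSeq genes CUL9 follows SRF, so Pol II past the end cannot be told apart from Pol II of that gene.

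At 30 min the SRF region, taken from 2 kb upstream to 5 kb past the end, held 8 peaks, of which 4 had no overlapping partner in control, against 34.1% of all 30 min peaks. The 4 were narrow, at 150, 150, 183 and 229 bp, and 150 bp is the smallest width in that list. Those at -1877 to -1727 and -1237 to -1087 lay upstream of the start, and those at 4724 to 4953 and 7970 to 8153 lay in the gene. None of the 4 had a partner at 1 h, and the share of all 30 min peaks without one was not computed. Upstream of SRF, the 2 kb before the start were covered over 53.0% in control cells, 69.3% after 30 min and 48.3% after 1 h. The values in control and at 30 min were the highest of the 7 genes. SRF was the single gene of the 7 with less cover at 1 h than at 30 min over its whole region, at a difference of -6.28 points.

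DUSP1 lies on chromosome 5 from 172195093 to 172198203 on the minus strand. Its 3111 bp were fully covered in all 3 Pol II lists. The difference lay upstream of the start: the 1 kb before it was covered over 70.6% in control cells, 47.9% after 30 min and 100% after 1 h. The peak on the start began at -543 in control, at -479 after 30 min and at -1059 after 1 h. In control a separate peak of 163 bp lay just upstream, from -710 to -547, and had no partner at 30 min, and with peaks of at least 300 bp alone the start differed by -3.20 points at 30 min. Past the gene, Pol II ended at about the same place in each list, with the last peak reaching 6247 bp past the start in control cells, 6592 bp after 30 min and 6573 bp after 1 h. At 1 h the gene and its flanks formed 1 peak of 7632 bp.

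IER2 lies on chromosome 19 from 13261282 to 13265716 on the plus strand, and STX10 precedes it in the order of RefSeq genes. Its start was covered over 88.0% in control cells, 97.5% after 30 min and 93.3% after 1 h, and its body over 96.8%, 98.9% and 100% at these times. Within 5 kb past the end, the gain over control at IER2 was the largest of the 7 at both times. Only DUSP1, IER2, ZFP36 and SRF had room there for a gain of 10 points. At IER2 this stretch was covered over 38.8% in control cells, 50.04% after 30 min and 52.8% after 1 h. The gain at IER2 lay within 3 kb of the end. The third kb past the end was covered over 16.1% in control cells, 50.2% after 30 min and 64.0% after 1 h, and the steps from 3 to 7 kb held no Pol II peak in any list. In control the same stretch held separate peaks of 1651, 184 and 161 bp, while at 1 h a peak of 7751 bp ran from -866 to 6885 without a break.

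IER3, the shortest of the 7 at 1353 bp, lies on chromosome 6 from 30710979 to 30712331 on the minus strand. All of its span lay under a single peak in each list. That peak began at -251 in control cells, -292 after 30 min and -318 after 1 h, and the start window was covered over 62.6%, 64.6% and 65.9%. The lists thus set nearly the same upstream edge. Downstream, Pol II did not end at the gene: the 20 kb past its end were covered over 90.03% in control cells, 91.0% after 30 min and 97.0% after 1 h. FLOT1 and then TUBB follow IER3 in the order of RefSeq genes, so Pol II past IER3 cannot be told apart from Pol II of those genes. Over the same 20 kb the lists differed in continuity, since the peak over IER3 ended 4997 bp past the start in control cells, 4979 bp after 30 min and 7719 bp after 1 h.

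ZFP36 lies on chromosome 19 from 39897487 to 39900045 on the plus strand. Its start was covered over 72.3% in control cells, 71.2% after 30 min and 84.1% after 1 h. The gain at 1 h lay in the 1 kb before the start, which was covered over 44.6% in control cells, 42.4% after 30 min and 68.1% after 1 h. At 1 h the peak on the start began at -681, against -446 in control, and a further peak of 200 bp at -1264 to -1064 had no partner in control or at 30 min. Cover of its body was 97.6% in control cells, 97.2% after 30 min and 100% after 1 h. The 5 kb past the end were covered over 78.8% in control cells, 71.1% after 30 min and 81.9% after 1 h, the largest drop of the 7 at 30 min in this window. Over 20 kb past the end ZFP36 was covered over 45.1% in control cells, 38.5% after 30 min and 36.1% after 1 h, and it was the single gene of the 7 with less cover than control over that distance. PLEKHG2 is the next protein-coding gene downstream, and Pol II past the end of ZFP36 cannot be told apart from Pol II of that gene.

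PPP1R15A lies on chromosome 19 from 49375649 to 49379319 on the plus strand. Over its region, from 2 kb upstream to 5 kb past the end, it differed least of the 7 between lists, by at most 0.79 points. Its start was covered over 64.7% in control cells, 65.5% after 30 min and 66.5% after 1 h, and its body over 100% in each list. The peak on the gene ran from -294 to 4584 in control, from -310 to 4597 after 30 min and from -330 to 4612 after 1 h. A break in the peaks stood at nearly the same place in all 3 lists, from 4584 to 4754 in control, 4597 to 4748 after 30 min and 4612 to 4743 after 1 h. The 5 kb past the end were covered over 96.6%, 96.1% and 97.4%. Larger differences lay farther on. The sixth kb past the end was covered over 67.5% in control cells, 75.2% after 30 min and 80.8% after 1 h, and the seventh over 20.2%, 56.8% and 81.1%. TULP2 and NUCB1 follow in the order of RefSeq genes.

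MCL1 lies on chromosome 1 from 150547027 to 150552214 on the minus strand. Pol II lay on its span in 5 pieces in control cells, 4 after 30 min and 1 after 1 h, and of the 7 bodies it had the largest gain in cover at 1 h. Only the bodies of MCL1 and SRF had room for a gain of 10 points. The MCL1 body was covered over 89.5% in control cells, 92.1% after 30 min and 100% after 1 h. The widest uncovered stretch of the gene measured 314 bp in control and 161 bp at 30 min. The 1 kb before its start was covered over 78.3% in control cells, 77.1% after 30 min and 98.8% after 1 h. Past its end, a peak of 16920 bp at 1 h ran from 5659 to 22579 bp past the start, the 47th widest of that list. Control peaks covered 14414 bp of it and 30 min peaks 15703 bp. Over 20 kb past the end MCL1 had the largest gain of the 7, with cover of 79.5% in control cells, 89.9% after 30 min and 98.3% after 1 h. The tenth kb past the end was covered over 25.3% in control cells, 66.6% after 30 min and 100% after 1 h. ADAMTSL4 and its antisense gene ADAMTSL4-AS1 lie downstream of MCL1 in RefSeq's order, so this stretch is shared with other genes.

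**Figure D2:**
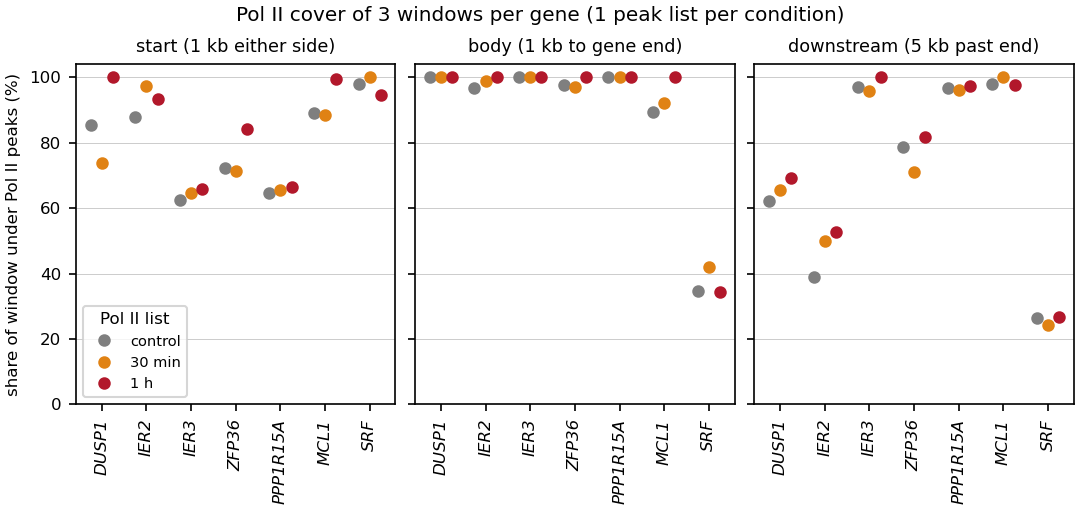
Share of the start, body and downstream window under Pol II peaks, in percent, for each gene in the control, 30 min and 1 h lists; each point is 1 list and has no error. Bodies sit near 100% in all lists except for SRF, which lies between 34.4% and 42.1%.

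Merbarone for 30 min was compared with control over the 7 genes by counting windows that differed by at least 10 percentage points. Of 6 starts with room for such a gain none was covered more by that much, and 1 start was covered less, that of DUSP1 at -11.4 points. Among 2 kb tiles, 21.7% were covered more and 10.5% less by the same limit, and among tiles at least 50% covered (as the mean of the 3 lists), 28.9% and 11.8%. The 1 kb before the start passed the limit with more cover at IER2 and with less at DUSP1, against 29.5% and 18.3% of 1 kb tiles. No body passed the limit in either direction, and only those of MCL1 and SRF had room for such a gain. The 5 kb past the end were covered more at IER2 alone, at 11.2 points, and at no gene less. Only 4 of these windows had room for such a gain. Among 5 kb tiles 12.2% were covered more and 3.82% less, or 27.8% and 9.56% of those at least 50% covered. The starts differed by a median of 0.80 points, the bodies by 0 and the downstream windows by -0.50. The medians of all tiles of 2 kb and 5 kb were 0 and 0.32, and those of tiles at least 50% covered were 2.20 and 3.00. The genes past the limit, 1 or none for each window and direction, were too few to set them apart from this background.

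Merbarone for 1 h was compared with the same control list, so both comparisons share their control. After 1 h, starts gaining 10 points or more were those of DUSP1 (14.7 points), ZFP36 (11.8) and MCL1 (10.3), and no start lost as much. With each peak shortened by its list's excess smallest width, MCL1 stood just under the limit, at 9.65 points. The unshortened count is 3 of 7 starts, or 3 of the 6 with room for such a gain, against 39.1% of 2 kb tiles covered more and 7.85% less, or 43.4% and 6.05% of those at least 50% covered. The count is close to the background. In each of the 3 genes the added cover lay upstream of the start, because the 1 kb after the start was already covered in full in control. The 1 kb before the start was covered more by at least 10 points at 4 of 7 genes, IER2 included, and less at none, against 46.2% and 14% of 1 kb tiles. The body passed the limit at MCL1 alone (10.5 points), 1 of the 2 bodies with room for such a gain, against the same 39.1% of 2 kb tiles. It stood below the limit when gaps under 38 bp were closed and peaks under 159 bp left out in every list (9.34 points), and over the whole span (8.46 points). The window past the end passed at IER2 alone (14 points), 1 of the 4 with room for such a gain. Among 5 kb tiles 25.3% were covered more and 2.81% less, or 47.8% and 4.13% of those at least 50% covered. The starts differed by a median of 5.35 points and the downstream windows by 2.90. The median over all 2 kb tiles was 6.55 and that over all 5 kb tiles was 3.42, and among tiles at least 50% covered they were 7.15 and 9.02.

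Between the 2 merbarone times, 3 of the 5 starts with room for it gained 10 points or more by 1 h. They were those of DUSP1 (26.1 points), ZFP36 (12.9) and MCL1 (10.9), and no start lost as much. Among 2 kb tiles 32.5% gained and 10.5% lost as much, and among those at least 50% covered 31.3% and 8.16%. The 1 kb before the start passed at 3 of 7 genes, all with more cover at 1 h, against 39.7% of 1 kb tiles with more and 16.4% with less. No body passed the limit in either direction, against the same shares of 2 kb tiles, and only that of SRF had room for such a gain. The window past the end was covered more at ZFP36 alone (10.7 points), 1 of the 4 with room. Among 5 kb tiles 19.5% had more cover and 4.7% less, or 34.6% and 6.54% of those at least 50% covered. The edge of the peak on the start differed between times, and its order was not the same for all. It lay farthest upstream at 1 h at DUSP1, IER3, ZFP36, PPP1R15A and MCL1, but at 30 min at IER2 and SRF. At IER2 it stood at -759 in control cells, -949 after 30 min and -866 after 1 h, and at SRF at -1060, -1085 and -965. The shifts were small at IER3 (from -292 at 30 min to -318 at 1 h) and PPP1R15A (from -310 to -330). Peaks of the 1 h list were wider as a whole, with a median of 347 bp against 242 bp in control. The share of all peaks with such an order was not computed.

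**Figure D3:**
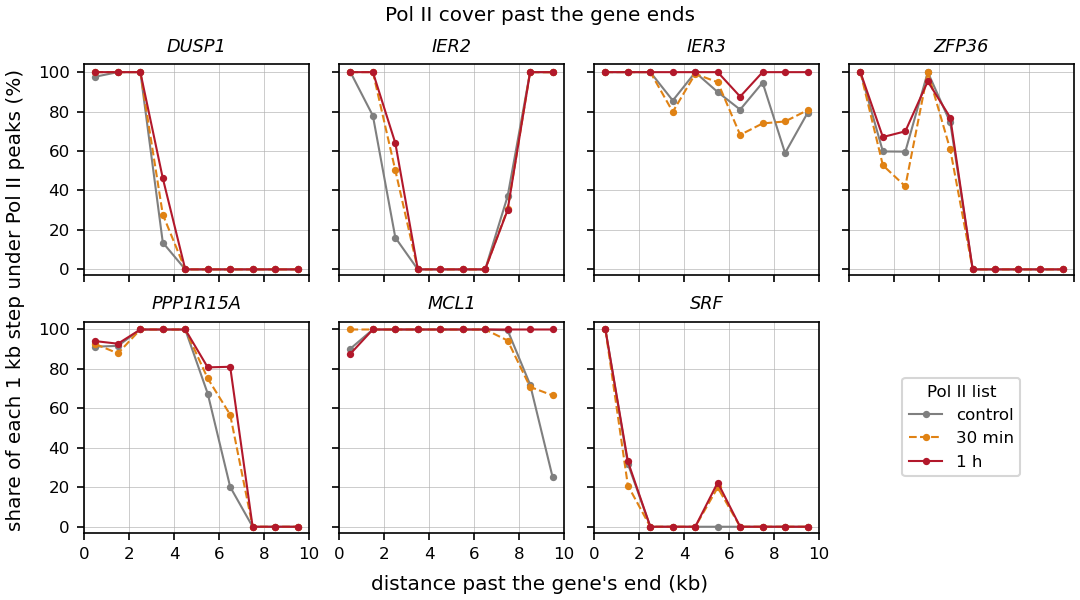
Share of each 1 kb step past the gene's end under Pol II peaks, in percent, against distance past the end in kb, for the control, 30 min and 1 h lists. Cover ended within 4 kb of the end at DUSP1 and returned at IER2 from 7 kb on. Steps past IER3 and MCL1 stayed covered over at least 59.0% out to 10 kb in every list. The exception was the last step of MCL1 in control, at 25.3%.

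The 7 regions together held 31 peaks in control cells, 26 after 30 min and 19 after 1 h. DUSP1, IER2, IER3 and MCL1 each held fewer at 1 h than in control. PPP1R15A held 2, 3 and 2 peaks in control, at 30 min and after 1 h, ZFP36 held 5, 3 and 5, and SRF held 7, 8 and 6. The spans of the genes were cut into 19 pieces in control cells, 17 after 30 min and 12 after 1 h. In these lists 3, 3 and 6 of the 7 genes lay under 1 unbroken peak. The whole lists also held fewer peaks in this order, at 87911, 85990 and 81816. The share of other Pol II regions under 1 unbroken peak was not computed. The whole 1 h list lacks gaps under 38 bp and peaks under 159 bp, and the other lists do not. With gaps under 38 bp closed and peaks under 159 bp left out in every list, MCL1 still had 3 pieces in each of the control and 30 min lists and 1 in the 1 h list, and IER2 had 2 in control and 1 at both merbarone times. SRF then had 5 pieces in control and at 30 min and 6 at 1 h. ZFP36 then kept its breaks of 38 bp in control and 44 bp at 30 min. Of the regions' peaks, 6 of 26 at 30 min had no overlapping partner in control, against 34.1% of all 30 min peaks. At 1 h, 3 of 19 had none in control, against 44.1% of all 1 h peaks. Of the 31 control peaks, 2 had none at 30 min and 1 had none at 1 h, against 26.1% and 22.3% of all control peaks. These shares were not matched for peak width. The median control peak measured 242 bp, while the regions held control peaks of up to 7398 bp. A wide peak meets a partner more readily, so the shares do not set these genes apart.

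The regions around the genes were set against the rest of the series through Pol II domains, made by joining the peaks of the 3 lists across gaps of up to 5 kb. The domains that hold the 7 starts ran from 7.65 kb at DUSP1 to 43.0 kb at ZFP36 and include neighbouring genes. At 30 min none of the 7 was covered more than in control by at least 10 points and none less, against 21.4% and 3.15% of 5584 domains of at least 5 kb. The differences ran from -0.81 points at DUSP1 to 6.41 at SRF, with a median of 1.60, against a median of 3.78 over all domains. At 1 h the limit was passed by 2 of 7, MCL1 at 12.5 points and ZFP36 at 10.6, against 49.7% of 5609 domains. None passed it with less cover, against 2.3%. The DUSP1 domain had no room for a gain of 10 points, as it was covered over 90.6% in control, and it reached 99.8% at 1 h. The differences ran from 0.45 points at SRF to 12.5 at MCL1, with a median of 6.78, against 9.91 over all domains. With domains joined across gaps of up to 2 kb instead, SRF stood at -4.41 points at 1 h and IER2 at 11.1. All shares in this paragraph are of domains joined across gaps of up to 5 kb, so they are no background for values at shorter gaps. Between 1 h and 30 min none of the 7 passed the limit, against 34.8% of 5662 domains with more cover and 5.83% with less. With the shorter gaps ZFP36 passed it, at 10.3 points. SRF stood lowest at -5.96 points, where 11.5% of domains lay below it, and DUSP1 highest at 9.99.

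**Figure D4:**
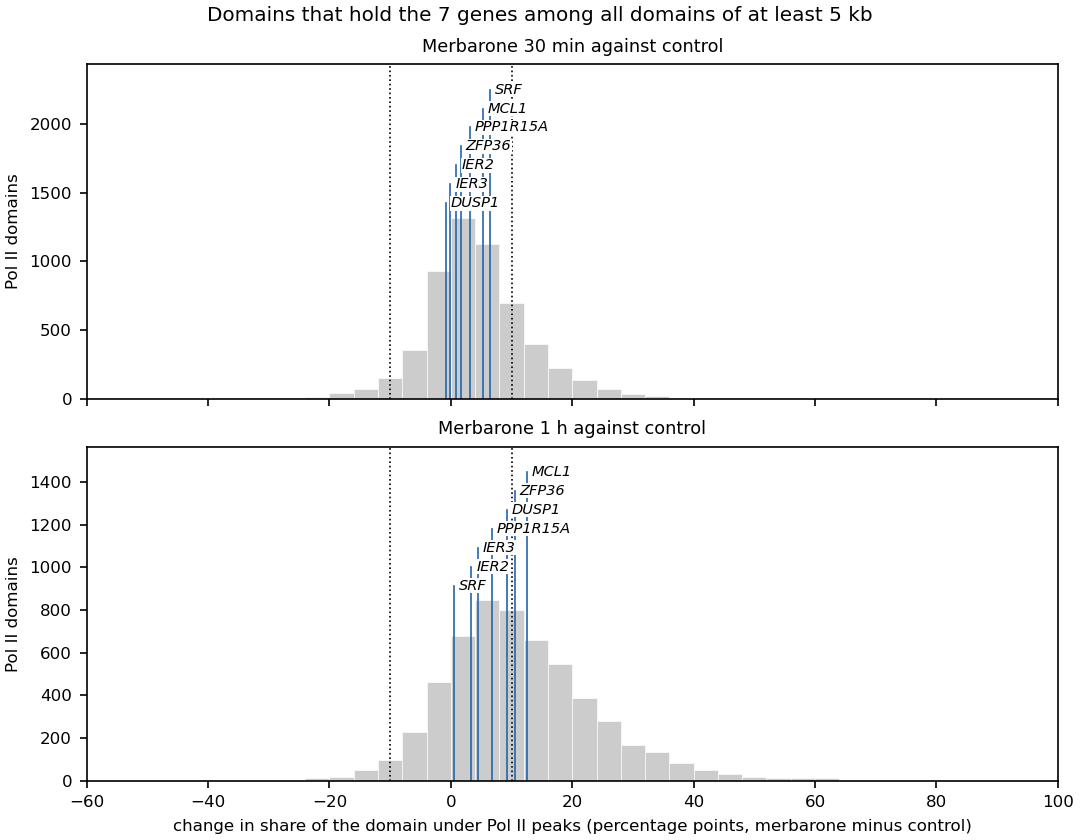
Number of Pol II domains of at least 5 kb (vertical axis) by the change in the share of the domain under Pol II peaks in percentage points (horizontal axis), at 30 min and at 1 h of merbarone minus control. Blue lines mark the domains that hold the 7 genes and dotted lines the limit of 10 points either way; the 7 lie between -0.81 and 6.41 points at 30 min and between 0.45 and 12.5 at 1 h.

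TOP2A peaks of untreated cells were found at DUSP1 and at no other of the 7 genes, within 2 kb upstream and 5 kb downstream. They lay on chromosome 5 from 172198053 to 172198247, across the gene's start from -44 to 151, and from 172197195 to 172197320, at 883 to 1009 bp past the start. They were 195 and 126 bp wide, the 60th and 318th widest of 1840, and both lay wholly under Pol II peaks in all 3 lists. The domain of MCL1 also held a TOP2A peak, of 75 bp and 30.7 kb past the start of MCL1. Thus 2 of the 7 domains held TOP2A, against 9.12% of 5902 domains of at least 5 kb. These domains were not matched for length, and that of MCL1 measured 35.4 kb. The nearest TOP2A peak stood 57.0 kb from the start of IER3, 94.5 kb from that of SRF, 617 kb from that of PPP1R15A, 645 kb from that of IER2 and 672 kb from that of ZFP36. No TOP2A list after merbarone was used here, so whether TOP2A moved at these genes was not tested.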

How the data were processed

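Per the submitters' processing notes, the authors used Bowtie 1.2.0, MACS2 and deepTools 2.4.1 on hg19. Sources used here do not state the MACS2 version, peak threshold, background library or way of combining libraries. Deposited peaks carry positions only, with no score, and were taken as BED intervals starting from 0.

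Gene spans and windows came from the rule that chose the genes; members, lists and measures were chosen with earlier results of these data known, and all 7 genes are named. Cover was the covered bp over the window length. Peaks were partners when they overlapped by at least 1 bp. The limit of 10 points is a size, not a test. Tiles were cut from the start of each chromosome. RefSeq's GRCh38.p14 tables gave gene order and promoter letters only. Alternatives used like limits (gaps under 38 bp closed and peaks under 159 bp left out in every list), peaks of at least 300 bp, peaks shortened by their list's excess smallest width, and other limits, windows and gaps. Interval functions were checked on simulated peaks. Tools were Python 3.11.15, numpy 2.4.6, pandas 2.3.3 and, for figures, matplotlib 3.10.9.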

Additional observations from a re-analysis of the deposited data

How the results depend on the processing

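No paired analysis was possible because each condition had 1 peak list for all its libraries, and for the same reason no library could be left out. No difference of at least 10 points changed sign under any alternative run. Of 252 recomputed window differences, 3 changed sign, the largest of them 3.30 points (DUSP1 downstream, 30 min minus control), which became -0.16 with like limits. Counts out of 7 genes that moved were these. With a start window of 500 bp either side, the start was covered more at 0 genes at 1 h against control and at 0 against 30 min (from 3 each), and covered less at 30 min at 0 (from 1). With a limit of 20 points, 0 starts were covered less at 30 min, 0 more at 1 h against control and 1 more at 1 h against 30 min, and all counts of 1 for bodies and downstream windows became 0. With shortened peaks, 2 starts in place of 3 were covered more at 1 h against control, and with a limit of 5 points 4 were. With that limit, 1 start and 1 body were covered more and 1 downstream window less at 30 min, 2 downstream windows were covered more at 1 h, and against 30 min 1 start and 1 body were covered less and 1 body more at 1 h. With peaks of at least 300 bp only, 0 starts were covered less at 30 min (DUSP1 then stood at -3.20 points), and 1 body was covered more at 1 h against 30 min. With like limits or the whole span as body, 0 bodies passed at 1 h against control. With shortened peaks or 2 kb downstream, 0 downstream windows passed at 1 h against 30 min. With domains joined across gaps of up to 2 kb, 32.9% were covered more and 5.02% less at 30 min, 3.74% less at 1 h, and 8.97% less at 1 h against 30 min. The domain of IER2 then stood at 9.96 points at 30 min, against 0.93, and that of IER3 at -1.74, against -0.06. Depth was unknown, so its part in cover was not tested.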
